A study of Homo sapiens with 12 samples.

Results

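Iron uptake, storage and export in Huh7 cells were followed through 10 genes, namely TFRC, TFR2, FTH1, FTL, HAMP, SLC40A1, SLC11A2, HFE, IREB2 and ACO1. Each gene was taken by its symbol from the table of the 2 Huh7 groups, where the 10 symbols matched 10 of the 60666 listed rows. Huh7 is an established human hepatocellular carcinoma line, and RNA was sequenced from 3 libraries of control cells and 3 libraries of cells in which FAM111B, a gene for a nuclear protease, was silenced. The control cells carried a control sequence in the same kind of lentiviral construct, and the silenced cells (shFAM111B) stably expressed a short hairpin RNA against FAM111B. Both groups were selected with puromycin. A single hairpin was used, the sources used here do not say whether a line was a pool or 1 clone, and no control with FAM111B put back is among the libraries. Nothing states that the 3 libraries of a group came from separate cultures, so the p-values below measure the spread between libraries, which may be technical. The Hep3B libraries of the series were not analysed here.

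Cells take up iron bound to transferrin through transferrin receptor 1, the product of TFRC, and the metal leaves the endosome through the transporter DMT1, the product of SLC11A2. Iron that is not used is stored in ferritin, a shell built from heavy (FTH1) and light (FTL) chains, and it leaves the cell through the exporter ferroportin, the product of SLC40A1. Hepatocytes also set the iron level of the whole body, because they secrete hepcidin (HAMP), a peptide hormone that removes ferroportin from cell surfaces, and they sense circulating iron with transferrin receptor 2 (TFR2) and HFE. Inside the cell the iron regulatory proteins IRP1 (ACO1) and IRP2 (IREB2) bind short hairpins, the iron-responsive elements (IREs), when iron is scarce. Binding in a 5' untranslated region blocks translation, and binding in a 3' untranslated region protects the mRNA from decay. An mRNA level as measured here therefore reads only part of this control.

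The elements that join these genes are shown first because they are the sites through which the iron regulatory proteins act on single mRNAs. The coding transcripts of GENCODE v29 (GRCh38) were searched for a C, a stem of 5 bases, the loop CAGTGN and 5 bases that pair with the stem by Watson-Crick or G-T pairs. Matches in untranslated regions were found in 4 of the 10 members. They lay in the 5' untranslated region of FTH1 (exon 1 of 4, minus strand), FTL (exon 1 of 4, plus strand) and SLC40A1 (exon 1 of 8, minus strand), and 4 of them lay in the 3' untranslated region of TFRC (exon 19 of 19, minus strand). Each sequence is written 5' to 3' as in the mRNA with T for U, over 29 bases, and capitals mark the loop.
FTH1, chr11:61967574-61967602: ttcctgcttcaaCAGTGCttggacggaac
FTL, chr19:48965335-48965363: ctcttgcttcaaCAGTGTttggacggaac
SLC40A1, chr2:189580661-189580689: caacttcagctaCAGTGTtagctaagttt
TFRC, chr3:196050979-196051007: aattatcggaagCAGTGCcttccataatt
TFRC, chr3:196050575-196050603: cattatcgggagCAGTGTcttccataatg
TFRC, chr3:196050510-196050538: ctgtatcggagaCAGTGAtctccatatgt
TFRC, chr3:196050463-196050491: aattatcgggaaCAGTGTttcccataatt
Among all coding genes, 36 of 19043 (0.189%) held such a match in a 5' untranslated region and 132 of 19146 (0.689%) in a 3' untranslated region. A match is a match of letters, and the absence of one from TFR2, HAMP, SLC11A2, HFE, IREB2 and ACO1 says only that this pattern is not in their annotated untranslated regions.

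FAM111B itself, in the 3 control libraries, stood at 7.84, 8.29 and 7.99 TPM (a transcript abundance, with reads divided by transcript length and scaled to a fixed library total), against 0.96, 1.13 and 0.84 TPM in the shFAM111B libraries. The log2 fold change was -2.20 (SE 0.113, adjusted p = 6.09e-06, limma with Benjamini-Hochberg adjustment). All 10 hepatocyte markers checked reached at least 1 TPM in every library, and their summed level was 27947 to 28518 TPM in control and 41574 to 46536 TPM in shFAM111B cells, a rise carried by AFP, without which the other 9 summed to 20856 to 21152 TPM and to 19721 to 21497 TPM. ALB (log2 fold change -0.63), APOB (-2.27) and HNF4A (-1.25) were lower and AFP (1.66), APOA1 (1.11) and TTR (1.04) higher after silencing. Of 10 markers of blood, vessel, stromal and bile duct cells, 5 stayed under 1 TPM in every library, HBB among them at 0. Another 4 (CD68, COL1A2, PECAM1 and PDGFRB) reached at least 1 TPM in every library, with higher means after silencing. Of these, PECAM1 (adjusted p = 0.109, limma) and PDGFRB (adjusted p = 0.0639, limma) overlapped between the groups. CD68, the highest, had a mean of 16.3 TPM in control and 22.6 TPM in shFAM111B cells. The last marker, PTPRC, was lower after silencing, at 0.13, 0.04 and 2.39 TPM in control and 0, 0.02 and 0 TPM in shFAM111B libraries. COL1A1, under 1 TPM throughout, was also lower, with means of 0.67 and 0.263 TPM and no overlap. The list summed to 26.5 to 29.7 TPM in control and 37.1 to 43.3 TPM in shFAM111B cells. The part of these marker differences in the iron gene values was not tested. In bulk RNA, fewer cells that express a gene and less RNA per cell cannot be told apart.

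The iron genes did not move as a block. Transferrin receptor 2, the endosomal transporter, ferroportin, HFE and IRP2 fell by more than a factor of 2 on the deposited scale. Transferrin receptor 1, ferritin light chain and IRP1 were lower by less, and ferritin heavy chain and hepcidin were higher by less. The signs of these last 5 turned under other scalings or once a trend with transcript length was removed. That trend was fitted jointly over transcript length and mean level, and is called the length or coding-length trend below. A call required a fold of at least 2 on log2(TPM + 1) and an adjusted p under 0.05, and by it 5 of the 10 members were lower and 0 were higher. TFR2 and SLC40A1 lost the call under all 4 other scalings tried, SLC11A2 and HFE under 1 of them, and all 5 lost it once the length trend was removed, with no change of sign. In all 14394 tested genes 23.7% were called lower and 6.77% higher. All 10 members had an adjusted p under 0.05 by limma, as had 72.0% of all tested genes, with 8 of them lower and 2 higher beside 50.9% and 21.1% of tested genes, and in all 10 the 3 values of one group lay apart from the 3 of the other, as in 75.2% of tested genes. Neither share sets the members apart from the rest. The median log2 fold change was -0.95 over the members and -0.36 over all tested genes, so that each member is also given relative to the median gene.

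Of the members named for iron entry, TFR2 and SLC11A2 fell and TFRC stood near the median gene. TFRC (ENSG00000072274, chromosome 3, 196027183 to 196082189, minus strand) was at 121.05, 114.77 and 111.02 TPM in control libraries 1 to 3 and at 81.02, 87.30 and 82.28 TPM in shFAM111B libraries 1 to 3. Every shFAM111B library was below every control library. The log2 fold change was -0.46 (SE 0.0545, adjusted p = 0.000214, limma), which is -0.10 relative to the median gene, and 45.6% of tested genes had a lower value. Its sign did not hold, since other scalings of the same values placed it between -0.42 and 0.07.

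TFR2 (ENSG00000106327, chromosome 7, 100620416 to 100642779, minus strand) encodes the second transferrin receptor, which in liver serves as an iron sensor more than as a route of uptake. It was at 20.79, 23.60 and 21.65 TPM in control and 8.83, 9.31 and 8.71 TPM in shFAM111B libraries, and every silenced library was below every control library. The mean went from 22.0 ± 1.44 to 8.95 ± 0.317 TPM (SD, n = 3), 2.46-fold lower, with a log2 fold change of -1.21 (SE 0.0787, adjusted p = 1.41e-05, limma). Relative to the median gene it was -0.85. It was under a fold of 2 in the 4 other scalings, at -0.82 to -0.68, and at -0.77 and -0.72 with the length and coding-length trends removed.

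SLC11A2 (ENSG00000110911, chromosome 12, 50979401 to 51028566, minus strand) encodes DMT1, which carries ferrous iron across the endosomal membrane. It was at 36.60, 34.71 and 36.14 TPM in control and 11.96, 12.56 and 11.90 TPM in shFAM111B libraries. The values were tight within each group and far apart between them. The level was 2.95-fold lower and the log2 fold change -1.49 (SE 0.0623, adjusted p = 3.54e-06, limma), or -1.12 relative to the median gene, with 10.1% of tested genes lower still. It was at -0.95 with library medians subtracted and at -0.85 with the length trend removed, both under a fold of 2. The table gives 1 value per gene, so the SLC11A2 transcripts with and without an iron-responsive element were not separated.

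The ferritin genes were by far the most abundant members, and on the deposited scale FTH1 was higher and FTL lower while their summed level overlapped between the groups. FTH1 (ENSG00000167996, chromosome 11, 61959718 to 61967660, minus strand) encodes the heavy chain, which oxidises iron for storage. It was at 8844.58, 8950.25 and 8912.36 TPM in control and 10798.92, 10361.99 and 10990.85 TPM in shFAM111B libraries, so that every silenced library was the higher. The level was 1.20-fold higher, with a log2 fold change of 0.27 (SE 0.0433, adjusted p = 0.00111, limma) and 0.63 relative to the median gene. The sign of FTH1 turned to -0.48 when the joint trend of fold change with transcript length and mean level was removed. Against the median of genes of similar coding length alone, FTH1 lay 0.13 above.

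FTL (ENSG00000087086, chromosome 19, 48965301 to 48966878, plus strand) encodes the light chain, which helps the iron core to form. Its values were 8638.83, 8511.50 and 8845.64 TPM in control and 6735.47, 6304.31 and 7222.71 TPM in shFAM111B libraries. All 3 silenced libraries were below the controls, although they spread more widely. The log2 fold change was -0.36 (SE 0.0588, adjusted p = 0.00113, limma), equal to that of the median gene (0.00 relative to it), and its sign did not hold under other scalings, which gave -0.18 to 0.17. With the length trend removed FTL was at -1.29, and with the coding-length trend removed at -1.16, both called lower. Against the median of genes of similar coding length alone, FTL was at -0.81.

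FTH1 and FTL together made up 1.76, 1.75 and 1.78% of the listed TPM in control and 1.78, 1.70 and 1.83% in shFAM111B libraries. These ranges overlapped. The 41 rows of ferritin pseudogenes (FTH1P and FTLP symbols) summed to 3.76 to 6.99 TPM in control and 6.51 to 7.40 TPM in shFAM111B libraries. Reads shared with these copies could be split in the authors' counting, so the ferritin levels carry that uncertainty. FTH1 also overlaps BEST1 on the other strand, and whether the counting used strand is not given in the sources used here. The same holds for TFRC, which has AC024937.1 and RNU7-18P on its other strand, and for IREB2, which has AC027228.1 there, while SLC11A2 holds RNU6-87P on its own strand.

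Ferroportin fell while hepcidin, which acts on ferroportin protein, was higher on the deposited scale and lower only with the coding-length trend removed. SLC40A1 (ENSG00000138449, chromosome 2, 189560579 to 189583758, minus strand) was at 44.32, 44.20 and 38.87 TPM in control and 14.76, 16.85 and 15.23 TPM in shFAM111B libraries. The lowest control library was well above the highest silenced one. The mean went from 42.5 ± 3.11 to 15.6 ± 1.10 TPM (SD, n = 3), 2.72-fold lower, with a log2 fold change of -1.39 (SE 0.0823, adjusted p = 9.79e-06, limma) and -1.03 relative to the median gene. It was not called under the 4 other scalings, at -0.99 to -0.85, or with the length and coding-length trends removed, at -0.91 and -0.85.

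HAMP (ENSG00000105697, chromosome 19, 35280716 to 35285143, plus strand) was at 32.67, 26.46 and 34.48 TPM in control and 45.43, 36.31 and 45.96 TPM in shFAM111B libraries. The groups lay apart by less than 2 TPM at their nearest values, and each had 1 library well below its other 2. The mean went from 31.2 ± 4.21 to 42.6 ± 5.42 TPM (SD, n = 3), with a log2 fold change of 0.44 (SE 0.129, 95% interval 0.13 to 0.74, adjusted p = 0.0184, limma), which is 0.80 relative to the median gene. HAMP did not reach the fold of 2. Without control replicate 2, shFAM111B replicate 1 or shFAM111B replicate 3 the adjusted p from limma was 0.0515, 0.059 and 0.0521 in turn. Under the 4 other scalings HAMP was at 0.80 to 0.97. With the length trend removed, by a longest transcript of 2624 nt, it was at 0.68. With the joint trend over the length of the longest coding transcript and the mean level removed, the sign turned to -0.32. That last value did not pass the test (adjusted p = 0.0643, limma). Against the median of genes of similar coding length alone, HAMP was at -0.01.

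The start of HAMP is shown because hepcidin transcription is known to be driven there by BMP signals through SMAD proteins and by interleukin signals through STAT3, and genes of the first route are described further on. The window runs from 125 to 66 bases before the RefSeq start on GRCh38.p14 (plus strand), and capitals mark the BMP-responsive letters GGCGCC and the STAT letters TTCNNNGAA, searched on both strands.
HAMP, chr19:35282403-35282462: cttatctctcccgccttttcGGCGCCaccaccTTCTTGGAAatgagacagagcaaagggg
GGCGCC was present in 19.2% and TTCNNNGAA in 7.66% of 35116 RefSeq promoter windows, which are of 1 length and longer than the stretch shown, and both were present in 269 of them (0.766%). The 2 motifs do not overlap in HAMP.

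HFE (ENSG00000010704, chromosome 6, 26087281 to 26098343, plus strand) encodes a relative of the HLA class I proteins that binds transferrin receptor 1 and takes part in the signal to hepcidin. It was the least abundant member, at 3.93, 4.51 and 5.31 TPM in control and 1.43, 0.67 and 1.35 TPM in shFAM111B libraries. No silenced library came near a control library. The mean level was 3.99-fold lower, from 4.58 ± 0.693 to 1.15 ± 0.418 TPM (SD, n = 3), whereas on log2(TPM + 1), which understates changes at such levels, the change was -1.39 (SE 0.188, adjusted p = 0.000441, limma). With a pseudocount of 0.1 it was -1.96. It was not called with library medians subtracted (-0.86) or with the length trend removed (-0.76). The number of reads behind these values is unknown.

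The mRNAs of both iron regulatory proteins were lower on the deposited scale, although ACO1 was higher with the length trend removed, and IREB2 had the lowest log2(TPM + 1) fold change of the members, whereas HFE was lower with a pseudocount of 0.1 and FTL with the length trend removed. IREB2 (ENSG00000136381, chromosome 15, 78437431 to 78501456, plus strand) encodes IRP2, which is destroyed by an FBXL5 ubiquitin ligase when iron is plentiful. It was at 42.51, 36.77 and 30.38 TPM in control and 11.16, 11.53 and 8.70 TPM in shFAM111B libraries. The controls spread more widely than those of most other members and still lay clear of the silenced libraries. The mean went from 36.6 ± 6.07 to 10.5 ± 1.54 TPM (SD, n = 3), 3.49-fold lower, with a log2 fold change of -1.71 (SE 0.149, adjusted p = 4.96e-05, limma), or -1.35 relative to the median gene and -0.90, not called, with the length trend removed. A share of 6.1% of tested genes had a lower value.

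ACO1 (ENSG00000122729, chromosome 9, 32384603 to 32454769, plus strand) encodes IRP1, which is a cytosolic aconitase when it holds an iron-sulfur cluster. It was at 18.27, 19.55 and 17.32 TPM in control and 9.85, 11.40 and 12.00 TPM in shFAM111B libraries, again with no overlap. The log2 fold change was -0.68 (SE 0.0954, adjusted p = 0.000517, limma), short of a fold of 2, and -0.32 relative to the median gene. Its sign turned to 0.23 when the length trend was removed.

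TPM are divided by length, so levels may be set beside each other between genes within a group. A change of rank between the groups also holds the trend of fold change with transcript length. In control cells FTH1 and FTL led with overlapping ranges, followed by TFRC. SLC40A1, IREB2 and SLC11A2 came next, and their neighbouring ranges overlapped. HAMP, TFR2, ACO1 and HFE followed, each apart from the next. The range of HAMP (26.46 to 34.48 TPM) lay apart from that of SLC11A2 but overlapped that of IREB2 (30.38 to 42.51 TPM). In shFAM111B cells FTH1 was clear of FTL, and HAMP, which had ranked 7 of 10, ranked 4 behind TFRC. SLC40A1 followed, and SLC11A2, ACO1, IREB2 and TFR2 then formed a run in which each neighbouring pair overlapped, above HFE.

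Ratios between 2 members of 1 library do not depend on any factor that scales the whole library, although a trend with transcript length still enters them, and all 5 ratios examined differed between the groups without overlap. FTH1 stood to FTL as 1.02, 1.05 and 1.01 in control and as 1.60, 1.64 and 1.52 in shFAM111B libraries, a mean of 1.03 ± 0.0222 against 1.59 ± 0.0621 (SD, n = 3, exact two-sided permutation p = 0.1). Control cells thus held near equal amounts of the chains' mRNAs and silenced cells held 1.55-fold more heavy against light chain. With 3 against 3 libraries 0.1 is the smallest p this test can give, and each of the 5 ratios reached it, so that no adjustment over the 5 can bring any under 0.05.

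The other ratios set storage, export and sensing genes beside TFRC, and the IRP mRNAs beside each other. Ferritin mRNA (FTH1 plus FTL) was 144.4, 152.1 and 160.0 times TFRC in control and 216.4, 190.9 and 221.4 times in shFAM111B libraries, a log2 difference of 0.46. This direction did not hold with the length trend removed, where FTH1 was at -0.48 and FTL at -1.29 beside TFRC at 0.07. SLC40A1 was 0.366, 0.385 and 0.350 of TFRC in control and 0.182, 0.193 and 0.185 in shFAM111B libraries, a log2 difference of -0.97. SLC40A1 was therefore lower against TFRC in every silenced library. TFRC is only part of uptake, and SLC11A2 (log2 fold change -1.49) fell about as much as SLC40A1 (-1.39). TFR2 was 0.172, 0.206 and 0.195 of TFRC in control and 0.109, 0.107 and 0.106 after silencing, a log2 difference of -0.83. The IRP mRNAs came nearer to equal levels, with ACO1 at 0.430, 0.532 and 0.570 of IREB2 in control and at 0.883, 0.989 and 1.38 in shFAM111B libraries (log2 difference 1.07), where shFAM111B replicate 3 lay above the other 2.

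The 4 members with an iron-responsive element in these transcripts did not share a direction on the deposited scale. Of those with the element in the 5' untranslated region, FTH1 was at 0.27, FTL at -0.36 and SLC40A1 at -1.39 on the log2 fold change scale, and TFRC with 4 elements in the 3' untranslated region was at -0.46. Relative to the median gene these values were 0.63, 0.00, -1.03 and -0.10. The signs of FTH1, FTL and TFRC also depended on the scaling or on the removal of the length trend, and that of SLC40A1 did not. With the length trend removed FTH1, FTL and SLC40A1 were at -0.48, -1.29 and -0.91, and TFRC was at 0.07. The part of the elements in these values was not tested.

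The fold change of a gene moved with transcript length over the whole table, and the members span this range. By the longest coding transcript, genes of up to 1000 nt had a median log2 fold change of 0.45, those of 1001 to 2000 nt 0.14, those of 2001 to 4000 nt -0.37, those of 4001 to 8000 nt -0.84 and those over 8000 nt -0.94. HAMP, whose coding transcripts are at most 652 nt long, was at the median of its class (difference -0.01), and FTH1 lay 0.13 above the median of its own. FTL, of 878 nt, lay at -0.81 from the median of the shortest class. Among the longer members TFR2 lay at -0.84, SLC40A1 at -1.02, SLC11A2 at -0.65, HFE at -0.55 and IREB2 at -0.87 from the median of their classes, while TFRC and ACO1 were above theirs by 0.37 and 0.15. The part of transcript length in the members' differences was not tested.

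How many members counted as lower depended on the scaling of the libraries, because the median tested gene was itself at -0.36 as deposited and between -0.03 and 0.17 under the 4 other scalings. The number called lower was 5 as deposited, 3 (SLC11A2, HFE and IREB2) under median-of-ratios scaling, upper-quartile scaling and quantile normalization, and 1 (IREB2) when the median of each library was subtracted. With the length and expression trend removed the 1 member called was FTL, at -1.29. TFR2, SLC40A1, SLC11A2, HFE and IREB2 were negative under every scaling and both trend removals, and no other member kept 1 sign throughout.

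Around the members, 6 lists of 100 genes in all covered uptake, storage, export with hepcidin control, the IRPs with mRNAs that hold an iron-responsive element, mitochondrial iron with iron-sulfur cluster assembly, and heme. Of the 79 tested genes that are not members, 20 were called lower and 2 higher, with a median log2 fold change of -0.44 beside -0.36 for all tested genes and shares called of 23.7% and 6.77%. The counts by list are descriptive, with no test between lists. Of the export and hepcidin list without members 10 of 16 tested genes were called lower and 1 higher (median -1.09), of uptake 2 of 8 and 0 (median -0.42), of storage 1 of 4 and 0 (median -0.79), and of the IRP list 3 of 7 and 0 (median -0.67). Mitochondrial iron and iron-sulfur assembly had 1 of 24 lower and 1 higher, with a median of 0.09, and heme had 3 of 20 lower and 0 higher, with a median of -0.24. These counts depended on the scaling. Under the 4 other scalings and with members included, the export and hepcidin list had 4 to 6 called lower and 2 or 3 higher, in place of 12 and 1, and the mitochondrial list 0 lower and 3 to 6 higher, in place of 1 and 1. With the length or coding-length trend removed, the export and hepcidin list had only 2 called lower and 1 higher. Uptake then had 1 called lower in place of 4, and the IRP list 0 in place of 4. Heme had 2 and 1 lower in place of 3, and storage 3 in place of 1.

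The 4 hepcidin control genes with the largest changes belong to the BMP route. Genes of that route make up most of the list, so this says little beyond how the list was chosen. BMP2, a BMP ligand that liver endothelial cells usually supply, was at 134.85, 128.18 and 130.75 TPM in control and 29.56, 30.57 and 28.58 TPM in shFAM111B libraries (log2 fold change -2.11, SE 0.0507, adjusted p = 1.38e-06, limma). The type I receptor BMPR1A was at -1.77, the receptor-activated SMAD5 at -2.38 and the shared partner SMAD4 at -1.58, each with an adjusted p by limma of 1.41e-05 or less. With the length and coding-length trends removed BMPR1A was at -0.74 and -0.72 and SMAD4 at -0.69 and -0.64, no longer called, while BMP2 (-1.72 and -1.63) and SMAD5 (-1.48 and -1.44) were. SMAD5 shares its locus with AC009014 transcripts and with SMAD5-AS1, so part of its reads could be theirs. The value of HAMP was 0.44, on the other side of 0 from all 4, although it was -0.32 with the coding-length trend removed. HEPH, a ferroxidase that works with ferroportin and the 1 gene of this list called higher, was picked out after its values were seen and went from 2.60 ± 0.105 to 8.08 ± 0.660 TPM (SD, n = 3, log2 fold change 1.33, adjusted p = 3.2e-05, limma).

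In the uptake list the transporter SLC39A14, which brings iron not bound to transferrin into hepatocytes, was at 228.83, 222.42 and 217.79 TPM in control and 70.92, 75.65 and 67.66 TPM in shFAM111B libraries (log2 fold change -1.63, SE 0.0545, adjusted p = 2.55e-06, limma). STEAP3, the endosomal reductase that prepares iron for DMT1, went from 8.13 ± 0.212 to 3.10 ± 0.442 TPM (SD, n = 3, log2 fold change -1.16). STEAP3 was not called under the 4 other scalings (-0.82 to -0.63) or with the trends removed (-0.57 and -0.54), whereas SLC39A14 was called in all of these. The transferrin gene TF, at -0.56, was not called.

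NCOA4, the receptor that delivers ferritin to the lysosome for the release of its iron, showed the largest fall of the storage list. It was at 125.49, 120.85 and 118.23 TPM in control and 20.86, 21.41 and 20.84 TPM in shFAM111B libraries, 5.78-fold lower (log2 fold change -2.47, SE 0.05, adjusted p = 1.08e-06, limma). Under the other scalings it was between -2.27 and -1.94, past a fold of 2 in each. The summed FTH1 and FTL level, as a share of the library, overlapped between the groups.

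Of the mRNAs listed with the IRPs, EPAS1 (HIF-2 alpha) was at -1.5, CUL1, a scaffold of the ligase that destroys IRP2, at -1.20 and CDC14A at -1.18, and all 3 were called lower on the deposited scale. CUL1 (-0.84 to -0.66) and CDC14A (-0.93 to -0.65) lost the call under the 4 other scalings and both trend removals, and EPAS1 with library medians subtracted (-0.97) and with the trends removed (-0.92 and -0.84). FBXL5, which recognises IRP2 for that ligase, was at 0.16 and did not pass the test (adjusted p = 0.0614, limma).

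Among heme genes FECH, which inserts iron into heme, went from 40.6 ± 1.99 to 6.19 ± 0.555 TPM (SD, n = 3), 6.56-fold lower, with a log2 fold change of -2.54 (SE 0.0852, adjusted p = 2.55e-06, limma). The heme exporter ABCG2 was at -1.51 and SLC46A1, a folate and heme transporter, at -1.44, and with the length trend removed these were at -0.91 and -0.57, not called, and FECH at -1.96. HMOX1, which frees iron from heme, was at -0.89 and was not called. In the mitochondrial list FDX2, a ferredoxin of iron-sulfur assembly, was the gene called higher, at 23.32 to 27.69 TPM in control and 58.50 to 86.37 TPM in shFAM111B libraries (log2 fold change 1.42, adjusted p = 9.62e-05, limma), and it overlaps AC011511.1 and AC011511.4 on the same strand, which makes its level uncertain. With the length trend removed FDX2 was at 0.96, not called. CIAO1, of the cytosolic assembly machinery, was at -1.25, and it was not called under the 4 other scalings (-0.93 to -0.72). It was at -0.80, not called, with the length trend removed and at -1.35, called lower, with the coding-length trend removed. Genes on the other strand overlap SLC39A14, STEAP3, BMPR1A, CUL1, CDC14A, ABCG2 and SLC46A1, so their levels carry the uncertainty named for FTH1.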

How the data were processed

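RNA from 6 Huh7 libraries (3 control, 3 shFAM111B, groups as labelled) was analysed, without the 6 Hep3B libraries. Per the labels, poly(A) RNA was prepared with a stranded kit, whereas the paper's methods name TruSeq. The authors deposited TPM per library. Their processing notes list RSEM, DESeq2 and hg38 without roles or versions, and the aligner and annotation are not given in the sources used here. The authors' mean TPM, fold (ratio), log2 fold and p-value columns were not used. TPM keep no depth, so the precision from depth is unknown and no counting interval was given.

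The 14394 genes that reached 1 TPM in 3 or more libraries were compared on log2(TPM + 1) with limma 3.58.1 (lmFit, eBayes with trend, two-sided) in R 4.3.3, without covariates, with Benjamini-Hochberg adjustment over all tested genes. No pair of libraries appeared to be a duplicate, with at most 0.889% identical TPM. Ratios were tested by exact permutation of mean log2 ratios (scipy 1.17.1). Alternatives were no filter, 1 TPM in every library, a pseudocount of 0.1, an unadjusted P, the replicate block, each library left out, 4 scalings and subtraction of a loess trend over transcript length and mean level (span 0.75). The same by coding length was added after seeing the data. Lengths, positions and untranslated regions came from GENCODE v29 (96.2% of rows matched by identifier), promoters from RefSeq. Scripts were tested on simulated data.

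The text names all members, FAM111B, of each list the up to 4 called genes that are not members with the largest absolute log2 fold change, and hepatocyte markers. HEPH and the uncalled genes TF, FBXL5 and HMOX1 were added after values were seen. The members and lists were chosen with earlier results of these data known.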

Additional observations from a re-analysis of the deposited data

How the results depend on the processing

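TFR2, SLC40A1, SLC11A2, HFE and IREB2 kept their direction under all alternatives that gave a value, and the other 5 members did not. TFRC turned to 0.07 (log2 fold change) with each library's median subtracted, 0.07 with the length trend removed and 0.16 with the coding-length trend removed. FTL turned to 0.09, 0.05 and 0.17 under median-of-ratios scaling, upper-quartile scaling and median subtraction, as did SERPINA1, to 0.17, 0.13 and 0.25. With the length or coding-length trend removed, FTH1 turned to -0.48 and -0.33 and ACO1 to 0.23 and 0.27, and HAMP turned to -0.32 with the second. HFE has no value where every library must reach 1 TPM.

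Members called lower were 5 as deposited, 3 under median-of-ratios, upper-quartile and quantile scaling, and 1 under median subtraction and either trend removal. In that order, all genes called higher were 974, then 2017, 1884, 1673 and 2574 (634 with 1 TPM in every library), and those called lower were 3406, then 1793, 1905, 1846, 1305, 1439 and 1369. Of the calls, 22.2% were higher as deposited, 52.9, 49.7, 47.5 and 66.4% under the scalings, and 46.6 and 47.6% with the trends removed. Pathway genes called higher were 2, then 11, 9, 5, 12, 4 and 5, and called lower 25, then 14, 14, 14, 8, 8 and 8. The scalings differ by their construction in where they set the median gene, and the cause of the length trend was not tested. Leaving out 1 library gave 904 to 1073 genes higher and 3360 to 3545 lower. Without a filter on TPM, the adjusted p of FTH1 was 0.0529 (limma).

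Libraries of the same replicate number were weakly alike. Their deviations from the group mean correlated at 0.0349 to 0.0908, and those of differently numbered libraries at -0.0763 to 0.0442. Of 6 libraries, 5 correlated best with their own number. With the replicate block, 5 members were called lower, and 983 genes were higher and 3402 lower. The block took the SE of HAMP from 0.129 to 0.0577 and that of IREB2 from 0.149 to 0.0824, but raised that of SLC11A2 from 0.0623 to 0.0728. TPM carry no depth, so the lowest member, HFE, has no counting error here.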

Other observations

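CDC42BPA, a kinase whose mRNA is listed among those with an iron-responsive element, was singled out after its values were seen. It was at 11.73, 11.83 and 11.14 TPM in control libraries and at 3.24, 3.39 and 25.49 TPM in shFAM111B libraries 1 to 3, so that shFAM111B replicate 3 lay above and the other 2 below every control. The log2 fold change was -0.67 (adjusted p = 0.398, limma) and was -1.54 without shFAM111B replicate 3, the lowest value when 1 library was left out, with a highest of -0.22.

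ID1, a target of BMP signals, and HJV, the BMP coreceptor hemojuvelin, were not called on the deposited scale. ID1 was at 514.0 ± 44.8 TPM in control and 953.8 ± 46.5 TPM in shFAM111B cells (SD, n = 3, log2 fold change 0.89), and HJV at 4.65 ± 0.443 and 8.19 ± 0.333 TPM (log2 fold change 0.70). Relative to the median gene they were at 1.25 and 1.07. Under the 4 other scalings ID1 was at 0.47 to 1.43 and HJV at 1.06 to 1.24, and with the length trend removed at 0.34 and 0.88. SMAD7, an inhibitor of the same route, was called lower on the deposited scale, from 38.2 ± 3.64 to 12.8 ± 1.44 TPM (log2 fold change -1.5, adjusted p = 1.9e-05, limma). Under the 4 other scalings SMAD7 was at -1.11 to -0.97, the last of these short of a fold of 2. With the length and coding-length trends removed it was at -0.86 and -0.80, not called. These genes were also picked out after their values were seen.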
